A study of Homo sapiens with 6 samples.

Results

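The zinc finger genes of chromosome 19 are the protein-coding genes of that chromosome whose symbols start with ZNF and a digit. There were 250 of them among 19974 protein-coding genes on chromosomes 1 to 22 and X, beside 1201 other genes of chromosome 19 and 267 ZNF genes of other chromosomes. The choice used names and positions alone and no measured value.

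Most of these genes encode proteins in which a row of zinc fingers reads DNA, and many also carry a KRAB domain, which binds the corepressor TRIM28. TRIM28 brings in a histone methyltransferase, heterochromatin proteins and DNA methylation, and many of the targets are transposable elements. The genes arose by repeated local duplication, so that close relatives stand side by side, and their far exons, which encode the fingers, are known to carry the same repressive histone mark in many cell types.

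The assay was ATAC-seq, where the transposase Tn5 cuts and tags DNA that is accessible, and the cells were KMS-11, an established line of multiple myeloma, a cancer of plasma cells. There were 3 libraries with the treatment label LentiV2_ATF4g3, described by the submitters as ATF4 knockdown, and 3 control libraries with the treatment label LentiV2. All 6 libraries therefore carry the LentiV2 name, all have the genotype label WT, and 1 guide label, ATF4g3, stands for the knockdown. ATF4 switches on genes that cells use when amino acids run short or when unfolded protein builds up in the endoplasmic reticulum. Each library gave 1 list of peaks, which are stretches of DNA with more cuts than the local background. The lists held 220250 to 222779 summits in the knockdown libraries and 225832 to 238246 in the controls. Depth moved with the group. The background pileup, the number of overlapping fragments expected by chance as recovered from each list, was 2.15 to 2.51 in the knockdown libraries and 2.79 to 3.52 in the controls, and peaks covered 63.0 to 63.9 Mb and 67.0 to 70.7 Mb. All 9 plasma cell markers looked up, among them SDC1 and TNFRSF17, had a peak at a gene end in all 6 libraries. So did 2 of 4 B cell markers, 3 of 4 T and NK cell markers, 1 of 4 myeloid markers and 5 of 5 epithelial and stromal markers, so an end peak alone does not mark a cell type. The ends of ATF4 itself had 1616, 1585 and 1652 covered bp in the knockdown libraries and 2036, 1913 and 1862 bp in the controls (limma adjusted p = 0.496), but accessibility measures neither its RNA nor its protein and is no check of the knockdown.

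The genes stand in 9 clusters separated by gaps of more than 1 Mb, which hold 239 of the 250, and 11 are scattered. In order along the chromosome (hg38), cluster 1 has 5 members, cluster 2 has 16, cluster 3 has 25, cluster 4 has 37, cluster 5 has 5, cluster 6 has 26, cluster 7 has 24, cluster 8 has 41 and cluster 9 has 60. Cluster 4, at 19668153 to 24129968 next to the centromere, runs from ZNF101 to ZNF254 and includes ZNF91, known to silence SVA retrotransposons. Cluster 8, at 51571283 to 53580269, runs from ZNF175 to ZNF331, and cluster 9, at 55476617 to 58489533 at the end of the long arm, runs from ZNF628 to ZNF446.

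The promoters of the members share short stretches of sequence that differ from cluster to cluster. Promoter sequences came from RefSeq on GRCh38.p14, as the 250 bases before and 50 bases after a gene's start, and 219 of the 250 members had one. The letters CCGGAAG, the core that ETS factors bind, stood in 100 of 219 member promoters (45.7%), against 14.2% of 15813 promoters of all genes, 12.8% of other genes of chromosome 19 and 33.9% of ZNF genes elsewhere. Both strands were searched for this and all other motifs. The share was 21 of 29 promoters in cluster 4 (72.4%), 22 of 34 in cluster 8 (64.7%) and 33 of 55 in cluster 9 (60.0%), and 2 of 24 in cluster 3 (8.33%). In cluster 4 all 21 members had the letters on the strand opposite to the gene, and in 20 of them they began within 30 bases of the start. In cluster 8 all 22 had them on the strand of the gene, and in 21 they began within 30 bases of the start, with a median of 4 bases after it. These genes are related by duplication, so their promoters are not independent examples.

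The sequences of 4 members of cluster 4 are shown because they set near-identical stretches beside different accessibility. They are read on the strand opposite to the gene, with CCGGAAG in capitals, and lie at chr19:23395472-23395511 on the + strand (ZNF91), chr19:23250389-23250428 on the + strand (ZNF724), chr19:20923217-20923256 on the − strand (ZNF85) and chr19:21836183-21836222 on the + strand (ZNF43).
ZNF91: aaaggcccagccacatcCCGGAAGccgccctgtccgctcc
ZNF724: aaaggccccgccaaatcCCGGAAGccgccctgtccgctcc
ZNF85: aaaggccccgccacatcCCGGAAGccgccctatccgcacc
ZNF43: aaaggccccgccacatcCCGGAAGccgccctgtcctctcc
ZNF91, ZNF724 and ZNF85 had a peak over the start in all 6 libraries, whereas ZNF43 had no covered base at its ends or in its body in any library. Directly before the ETS letters, read on the strand of the gene, stands GGGCGG, the core of the site of SP factors, and the joined run GGGCGGCTTCCGG was found in 11 members, all in cluster 4, and in 19 of all 15813 promoters.

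In cluster 8 the same ETS letters stand in another setting, shown here for 4 members on the strand of the gene. They lie at chr19:52269574-52269613 on the + strand (ZNF766), chr19:52527655-52527694 on the + strand (ZNF808), chr19:52735018-52735057 on the − strand (ZNF611) and chr19:53333736-53333775 on the + strand (ZNF845).
ZNF766: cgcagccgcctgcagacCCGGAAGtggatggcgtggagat
ZNF808: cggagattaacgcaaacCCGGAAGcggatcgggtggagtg
ZNF611: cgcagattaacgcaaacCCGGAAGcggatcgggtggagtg
ZNF845: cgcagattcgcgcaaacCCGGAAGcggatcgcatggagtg
All 4 had a peak over the start in all 6 libraries.

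Letters that ATF factors bind were rare. The site that ATF4 binds with C/EBP partners, searched as TGATGCAA, stood in 1 member promoter, that of ZNF577 (0.457%, against 0.670% of all promoters). The cyclic AMP response element TGACGTCA stood in 7 (3.20%, against 2.59%), namely ZNF266, ZNF426, ZNF121, ZNF561 and ZNF562 of cluster 2 and ZNF543 and ZNF547 of cluster 9. The looser TGACGNNA was found in 12.8% of member promoters and 9.61% of all promoters, and TGATGNAA in 1.83% and 2.54%. The 5 of cluster 2 are shown because 4 of them have GGAAG, the last letters of the ETS core, directly before the response element. They are read on the strand of the gene, the − strand, with the response element in capitals, and lie at chr19:9435567-9435606 (ZNF266), chr19:9584531-9584570 (ZNF121), chr19:9621232-9621271 (ZNF561), chr19:9675084-9675123 (ZNF562) and chr19:9538643-9538682 (ZNF426).
ZNF266: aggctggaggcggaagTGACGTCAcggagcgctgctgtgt
ZNF121: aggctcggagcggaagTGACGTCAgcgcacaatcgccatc
ZNF561: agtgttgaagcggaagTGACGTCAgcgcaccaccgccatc
ZNF562: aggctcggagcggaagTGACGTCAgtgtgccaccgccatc
ZNF426: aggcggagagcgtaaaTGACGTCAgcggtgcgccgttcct
This order was found in ZNF266, ZNF121, ZNF561 and ZNF562 and in 18 of all 15813 promoters. These 4 had a peak over the start in all 6 libraries, and ZNF426, whose stretch lacks GGAAG there, had no covered base at its ends or in its body in any library.

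The whole promoters of ZNF577 and ZNF543 are shown because they hold the letters TGATGCAA and a response element with opposite accessibility. They lie at chr19:51887902-51888201 on the − strand (ZNF577) and chr19:57320222-57320521 on the + strand (ZNF543), with TGATGCAA, read on the other strand, and TGACGTCA in capitals.
ZNF577: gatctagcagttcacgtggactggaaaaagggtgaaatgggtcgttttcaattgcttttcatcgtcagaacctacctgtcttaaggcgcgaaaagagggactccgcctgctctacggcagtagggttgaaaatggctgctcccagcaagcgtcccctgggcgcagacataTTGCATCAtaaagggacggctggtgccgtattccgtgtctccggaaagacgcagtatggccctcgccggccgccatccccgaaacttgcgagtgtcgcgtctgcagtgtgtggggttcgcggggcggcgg
ZNF543: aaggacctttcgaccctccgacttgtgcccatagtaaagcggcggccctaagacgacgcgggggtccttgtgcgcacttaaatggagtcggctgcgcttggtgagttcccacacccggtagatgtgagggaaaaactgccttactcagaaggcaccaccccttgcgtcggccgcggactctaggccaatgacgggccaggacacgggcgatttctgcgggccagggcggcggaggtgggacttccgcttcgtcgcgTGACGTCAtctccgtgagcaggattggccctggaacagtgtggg
No library had a peak over the start of ZNF577. At ZNF543 the strongest peak at a gene end had a −log10 q of 193, 209 and 235 in knockdown libraries 1, 2 and 3 and of 439, 399 and 415 in control libraries 1, 2 and 3. The −log10 q is the peak caller's strength of a peak within its own list, and it is lower where depth is lower. Peaks covered 942, 1031 and 1230 bp at the ends of ZNF543 in the knockdown libraries and 1100, 1094 and 1222 bp in the controls (log2 difference 0.02, SE 0.10, limma adjusted p = 0.953).

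Other motifs searched were GGGCGG of SP factors (67.6% of members, 58.5% of all promoters), GCGCATGCG of NRF1 (2.74% and 2.76%), AAGATGGCG of YY1 (3.65% and 2.74%), ACTACAATT of ZNF143 (1.37% and 0.462%) and GGGACTTTC of NF-kB (0 of 219, against 0.360%). In all, 10 motifs were searched. A match only says that the letters are there.

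Accessibility of the members sat at the start of the gene and not at its far end. A peak lay over the annotated start itself in all 6 libraries in 172 of 219 members (78.5%), against 60.7% of all genes, 54.6% of other genes of chromosome 19 and 79.4% of ZNF genes elsewhere. A summit within 1 kb of the start was listed for 177 to 183 of the 219 members in each library. The strongest such summit stood at a median of 53 to 55 bp before the start in the knockdown libraries and 52 to 56.5 bp before it in the controls. For all genes the median was 53 to 54 bp before the start, so this is no trait of the members. Within 2 kb on both sides of the start, a peak was listed for 177, 176 and 171 of the 219 members in knockdown libraries 1, 2 and 3 and for 177, 176 and 174 in the controls. At the far end the counts were 30, 30 and 27 in the knockdown libraries and 24, 23 and 24 in the controls. The far-end share was 13.2% ± 0.79 in the knockdown libraries and 10.8% ± 0.26 in the controls (SD, n = 3 each), against 33.6% and 32.9% for all genes, 49.3% and 49.9% for other genes of chromosome 19 and 23.5% and 21.6% for ZNF genes elsewhere. Neighbouring genes stand closer together on this chromosome than the windows are wide in places, so a window can hold a neighbour's peak.

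**Figure D1:**
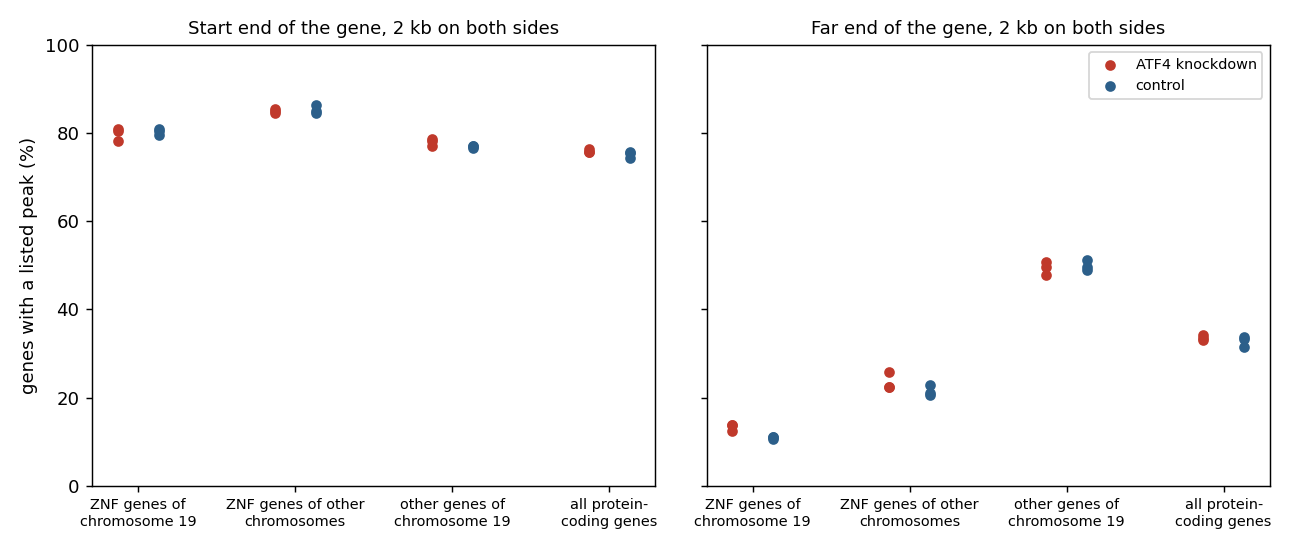
Share of genes with a listed peak (y axis, %) within 2 kb on both sides of the start end (left) and of the far end (right), 1 point per library, for ZNF genes of chromosome 19, ZNF genes elsewhere, other genes of chromosome 19 and all protein-coding genes. ZNF genes of chromosome 19 lie between 78.1% and 80.8% at the start end and between 10.5% and 13.7% at the far end.

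Taking both ends together, a member had a covered base within 2 kb in 202, 202 and 197 cases in the knockdown libraries and in 200, 200 and 198 cases in the controls. That was 80.1% ± 1.15 and 79.7% ± 0.46 of the 250 (SD, n = 3 each), against 80.5% and 79.3% of all genes. The same 188 members were covered in all 6 libraries, 31 in none and 31 in 1 to 5 of them. Among those covered in all 6, 174 had an end peak whose −log10 q reached 10 in every library. A further set of 18 members, chosen after their values were seen and including ZNF558, ZNF30, ZNF420, ZNF567 and ZNF540, had no end peak so strong but a body peak so strong in all 6 libraries. The 10 members with no covered base at the ends or in the body in any library were ZNF426, ZNF433, ZNF625, ZNF738, ZNF43, ZNF729, ZNF99, ZNF728, ZNF233 and ZNF677. How reads that match several near-identical genes were handled is not given in the sources used here, and it bears on these close relatives first.

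The end peaks were of above-median strength among all genes, in both groups alike. The median percentile of a member's strongest end peak among all protein-coding genes of the library was 57.6 to 58.7 in the knockdown libraries and 56.5 to 58.4 in the controls. ZNF genes elsewhere lay higher still, at 59.0 to 59.9 in the knockdown libraries and 61.0 to 62.1 in the controls. Other genes of chromosome 19 lay at 48.6 to 51.7 and 47.4 to 49.2. The fold over local background of listed end peaks had a median of 13.6, 14.5 and 14.9 in knockdown libraries 1, 2 and 3 and of 16.7, 18.1 and 16.4 in the controls. For all genes it was 10.7 to 11.3 in the knockdown libraries and 12.2 to 13.5 in the controls. The strongest end peak of any member was that of ZNF584 in each of the 6 libraries, with a −log10 q of 383, 324 and 366 in the knockdown libraries and 556, 641 and 710 in the controls. The median fold was lower in the knockdown libraries for members and for all genes, and the background pileup was lower there too. The part of depth in this was not tested.

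The clusters differed from each other in accessibility, with cluster 9 high and cluster 4 low in both groups. All 5 members of cluster 1 had an end peak in all 6 libraries. In cluster 9, 51 of 60 members did (85.0%), in cluster 3, 21 of 25 (84.0%), and in cluster 8, 33 of 41 (80.5%). In cluster 6, 16 of 26 members did (61.5%), and in cluster 4, 21 of 37 (56.8%). The median percentile of the strongest end peak was 70.7, 77.8 and 73.6 in the knockdown libraries and 78.9, 78.7 and 77.6 in the controls for cluster 9. For cluster 4 it was 36.3, 33.9 and 35.2 in the knockdown libraries and 32.2, 32.5 and 30.8 in the controls. Cluster 5, with 5 members, lay as low, at 31.4 to 35.8 in the knockdown libraries and 33.2 to 34.5 in the controls. The groups did not overlap in 4 of the 9 clusters, in differing directions, and this was not tested. Cluster 1 has only 5 members, and in cluster 8 the groups all but touched. The percentiles were higher in the knockdown libraries in cluster 1 (63.2 to 70.9, against 51.8 to 54.9 in the controls), cluster 4 and cluster 8 (52.71 to 61.2, against 48.7 to 52.68), and lower in cluster 6 (43.2 to 45.2, against 48.2 to 50.7). Per kb of gene, end peaks covered 59.6 to 61.4 bp in the knockdown libraries and 62.1 to 66.8 bp in the controls in cluster 9. In cluster 4, whose genes are longer (median 34.6 kb, against 13.03 kb in cluster 9), it was 11.50 to 11.98 bp and 11.86 to 12.37 bp. End windows do not widen with long genes, so this value is lower for long genes by construction. The median per member was 946 to 964.5 bp in the knockdown libraries and 955.5 to 1041.5 bp in the controls in cluster 9. In cluster 4 it was 551 to 717 bp and 685 to 731 bp. These values are for gene ends. A body peak was found in all 6 libraries in 22 of 26 members of cluster 6 and all 5 of cluster 5. In cluster 4 it was found in 22 of 37. The median percentile of the strongest body peak in cluster 6 was 61.4 to 66.5 (knockdown) and 74.5 to 75.3 (controls). For cluster 5 it was 56.9 to 60.8 and 58.3 to 67.0, and for cluster 4 27.1 to 29.7 and 24.1 to 25.6. Cluster 4 was low in bodies too, unlike clusters 5 and 6.

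**Figure D2:**
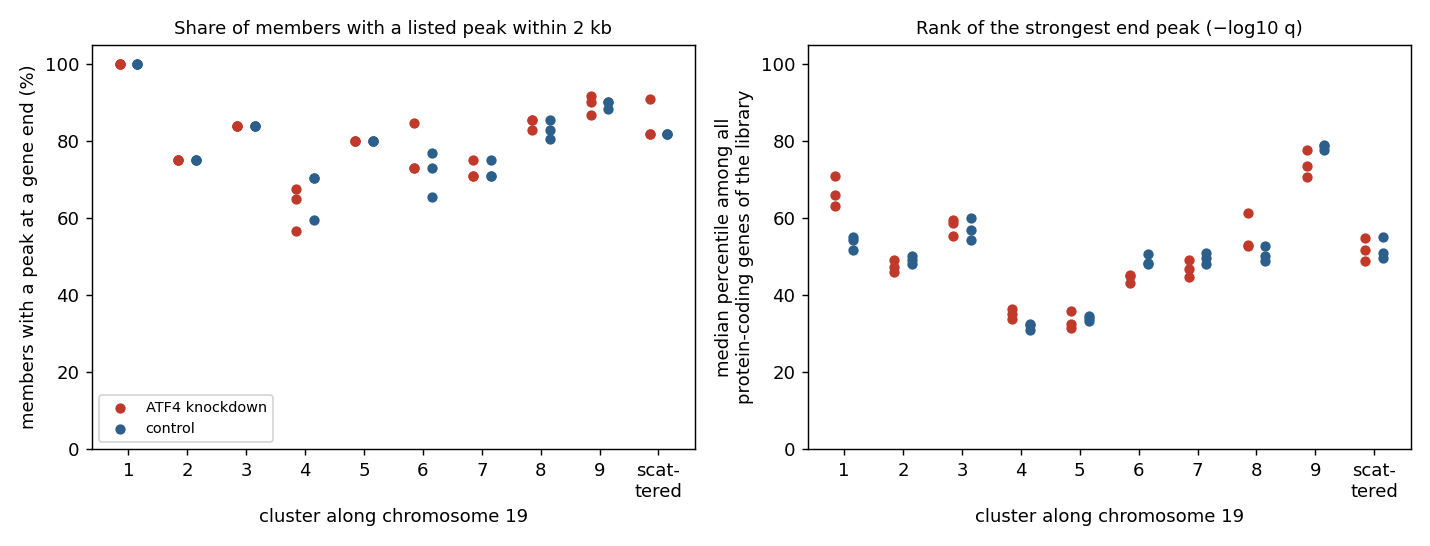
Share of members with a listed peak within 2 kb of a gene end (left, %) and median percentile of the strongest end peak among all protein-coding genes of the library (right), by cluster along chromosome 19, 1 point per library. Cluster 9 lies at percentiles 70.7 to 78.9 and cluster 4 at 30.8 to 36.3 in all 6 libraries.

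The CpG content of promoters did not follow the order of the clusters throughout. The median number of CpG dinucleotides was 10 in cluster 4, 23 in cluster 9 and 25 in cluster 8, but 16 in cluster 3, where most members had an end peak, and 22 in cluster 6, where fewer did. The 35 members with no peak over the start in any library had a median of 17 CpG, and the 172 with one in all 6 libraries had 21. A peak over the start in all 6 libraries was found in 81 of 100 members with CCGGAAG and in 91 of 119 without it (76.5%), and in cluster 4 in 12 of 21 with it and 6 of 8 without. The strongest end peak had a median −log10 q of 82.1, 79.8 and 105.1 in the knockdown libraries and 188, 206 and 191 in the controls for members with the letters. For members without them it was 69.1, 63.4 and 81.1 in the knockdown libraries and 132, 136 and 129 in the controls, lower in each of the 6 libraries. These are descriptions of related sequences with no test.

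No member passed the test between groups, at gene ends or in gene bodies. Covered bases were scaled by the total covered length of each library and compared as log2(value + 200 bp) with limma across all protein-coding genes covered in at least 3 libraries, with Benjamini-Hochberg adjustment. The added 200 bp makes differences smaller than the true ones where little DNA is covered. At gene ends 0 of 201 members passed an adjusted p of 0.05 in either direction, where 0 of 16110 genes were higher (0.0%) and 2 were lower (0.0124%), and the smallest adjusted p of a member was 0.257. In gene bodies 0 of 221 members passed, where 5 of 17145 genes were higher (0.0292%) and 1 was lower (0.00583%), and the smallest adjusted p of a member was 0.0727. Another 49 members at the ends and 29 in the body were covered in fewer than 3 libraries and were not tested.

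Differences of the members were small and, after scaling by library totals, leaned to higher values in the knockdown libraries. At gene ends 135 members were higher, 84 lower and 31 equal, 240 of the 250 within 0.5 on the log2 scale, with a median over all 250 of 0.01. In gene bodies 165 were higher, 75 lower and 10 equal, between −0.70 (ZNF439) and 1.88 (ZNF793), with a median of 0.07, where the median of all genes was 0 in both. At an unadjusted limma p under 0.05, 8 members were higher at the ends (3.98%, against 3.7% of all genes) and 4 lower (1.99%, against 7.09%). In the bodies 22 were higher (9.95%, against 6.84%) and 4 lower (1.81%, against 9.87%). Other genes of chromosome 19 leaned the same way in bodies, with a median of 0.02 and 87 higher and 52 lower of 1031 tested. ZNF genes elsewhere had a median of 0.01, with 14 higher and 15 lower of 240. Groups that did not overlap, with all 3 knockdown libraries above all 3 controls, were found for 30 members at the ends (14.9%, against 9.76%) and 42 of 221 in the bodies, where the share over all genes was 11.7%. The reverse order was found for 6 members at the ends (2.99%, against 9.03%) and 6 in the bodies (2.71%, against 12.7%). These shares move with the scaling and with the strength asked of a peak, given under the processing. Unscaled, covered bp at member ends summed to 189847 to 191567 in the knockdown libraries and 198560 to 205775 in the controls. That is a ratio of 0.938, against 0.908 for all genes. In bodies the unscaled sums overlapped, with a ratio of 1.03, against 0.909 for all genes. The median over members was negative without scaling, at ends and in bodies. The members share peaks, since 24 of the 188 covered in all 6 libraries had the same strongest end peak as another member, so they are not independent.

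**Figure D3:**
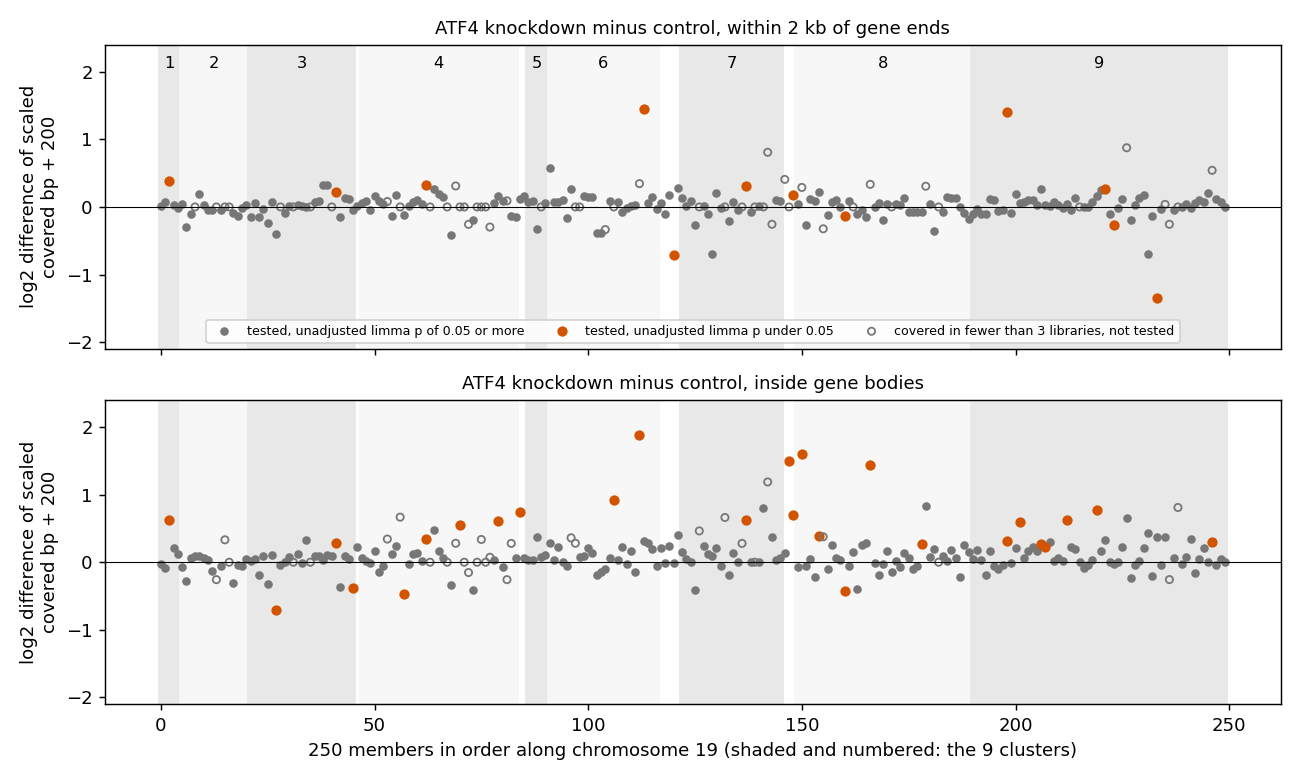
Log2 difference of scaled covered bp + 200 (ATF4 knockdown minus control, y axis) for the 250 members in their order along chromosome 19, at gene ends (top) and in gene bodies (bottom), with the 9 clusters shaded and numbered. Open points were covered in fewer than 3 libraries and not tested, and orange points had an unadjusted limma p under 0.05; most points lie near 0, and none passed the adjusted threshold. For members at 0 bp in all libraries of 1 group the plotted value is set by the added 200 bp.

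ZNF536, known for holding back the differentiation of neurons, had the smallest adjusted p of any member, and its direction depended on which peaks were counted. It is a scattered member and the longest, 488 kb at 30225592 to 30713586 on the + strand. Peaks covered 12980, 15520 and 11926 bp of its body in knockdown libraries 1, 2 and 3 and 9876, 8883 and 7486 bp in the controls. All 3 knockdown libraries lay above all 3 controls (log2 difference 0.74, SE 0.13, limma adjusted p = 0.0727). The added DNA was in weak peaks. Regions with a −log10 q below 2 numbered 30, 37 and 22 in the knockdown libraries and 12, 9 and 5 in the controls. Regions with a −log10 q of at least 10 numbered 4, 5 and 4 in the knockdown libraries and 9 in each control. Peaks of that strength covered 2117, 2695 and 2551 bp in the knockdown libraries and 4932, 4936 and 5551 bp in the controls. With those peaks alone all 3 knockdown libraries lay below all 3 controls, and the test passed in that direction (log2 difference −0.50, SE 0.10, limma adjusted p = 0.0156). Without the end windows and with all listed peaks, the body of ZNF536 passed as higher (0.78, adjusted p = 0.0456).

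The body was also where other members were higher, mostly by weak peaks. ZNF793 of cluster 6 had 586, 996 and 533 covered bp in its body in the knockdown libraries and 200, 0 and 0 bp in the controls (1.88, SE 0.35, limma adjusted p = 0.079). ZNF577 of cluster 8, the member with the letters TGATGCAA in its promoter, had 359, 897 and 371 bp in the knockdown libraries and 0, 159 and 0 bp in the controls (1.59, SE 0.38, limma adjusted p = 0.119). All 3 knockdown libraries lay above all 3 controls for both genes, and peaks reaching a −log10 q of 10 were listed for ZNF793 in 1 library and for ZNF577 in none.

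ZNF549 of cluster 9 had 832, 608 and 1027 bp in the knockdown libraries and 463, 543 and 309 bp in the controls (0.77, SE 0.20, limma adjusted p = 0.137). Its strong peaks, with a −log10 q of at least 10, covered 492, 417 and 501 bp in the knockdown libraries and 463, 543 and 309 bp in the controls, so that the groups overlapped there. ZNF226 of cluster 7 had 682, 642 and 699 bp in the knockdown libraries and 588, 323 and 333 bp in the controls (0.63, SE 0.17, limma adjusted p = 0.156), without overlap.

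ZNF91, the silencer of SVA elements, had 1498, 2099 and 2062 bp in its body in the knockdown libraries and 1514, 1124 and 1178 bp in the controls. The raw values overlapped and the scaled ones did not (1974 ± 356 and 1217 ± 185 bp, SD, n = 3 each; log2 difference 0.61, SE 0.16, limma adjusted p = 0.138). At its ends, where the start lies, it had 723, 745 and 789 bp in the knockdown libraries and 742, 685 and 703 bp in the controls (0.17, SE 0.10, limma adjusted p = 0.588).

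Fewer members were lower. ZNF439 of cluster 3 had 115, 230 and 137 bp in its body in the knockdown libraries and 457, 340 and 441 bp in the controls (−0.70, SE 0.21, limma adjusted p = 0.173). Its strongest peak had a −log10 q of 9.13, 11.3 and 5.82 in the knockdown libraries and 26.8, 40.9 and 28.4 in the controls. With peaks of a −log10 q of at least 10 alone, 0, 80 and 0 bp remained in the knockdown libraries and 457, 340 and 441 bp in the controls, and the test passed as lower (−1.25, SE 0.21, limma adjusted p = 0.0117). At that threshold 3 of 202 members were lower in gene bodies, ZNF439 among them, where the share over all genes was 6.57%. Higher were 94 of 202, where the share over all genes was 25.9% and the median of all tested genes had shifted to 0.17. These calls use values scaled by each library's total. Unscaled, peaks of that strength covered 134792 to 140469 bp of member bodies in the knockdown libraries and 150865 to 158785 bp in the controls. ZNF766 of cluster 8 had 632, 639 and 643 bp in its body in the knockdown libraries and 1193, 1012 and 842 bp in the controls (−0.42, SE 0.11, limma adjusted p = 0.147), without overlap.

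**Figure D4:**
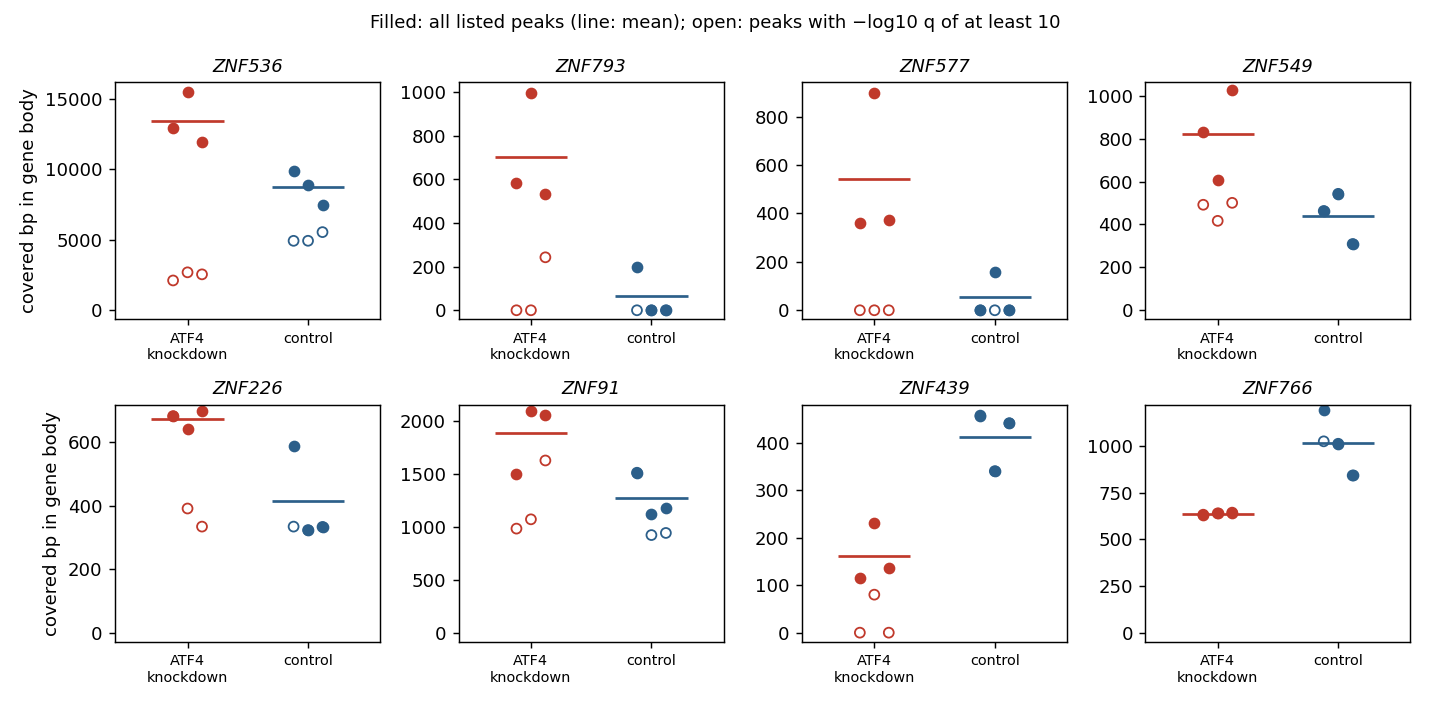
Covered bp in the gene body for 8 members, 3 libraries per group, with all listed peaks (filled points, line at their mean) and with peaks of a −log10 q of at least 10 alone (open points). For ZNF536 the filled points are higher in the knockdown libraries (11926 to 15520 bp) than in the controls (7486 to 9876 bp), and the open points are lower (2117 to 2695 bp, against 4932 to 5551 bp).

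At gene ends ZNF540, ZNF444 and ZNF814 had peaks in all 3 libraries of 1 group and none in the other. That was 2 of 250 members in the knockdown libraries alone and 1 in the controls alone. Among all 19974 genes the counts were 85 and 48. ZNF540 of cluster 6 had 528, 381 and 150 bp in the knockdown libraries and 0 bp in each control (limma adjusted p = 0.282), all weak, the strongest with a −log10 q of 1.65. Its strongest end peak lay at 37551027 to 37551554, 37551803 to 37551952 and 37549914 to 37550063 in knockdown libraries 1, 2 and 3. These stretches do not overlap, so they are not 1 shared region. ZNF444 of cluster 9 had 187, 407 and 375 bp in the knockdown libraries and 0 bp in each control (limma adjusted p = 0.257), where the strongest had a −log10 q of 2.26. Its strongest end peak lay at 56160080 to 56160266 and 56160072 to 56160296 in knockdown libraries 1 and 3. In knockdown library 2 it lay elsewhere, at 56161335 to 56161591. ZNF814 of cluster 9 had 0 bp in each knockdown library and 410, 469 and 150 bp in the controls (limma adjusted p = 0.294). It was the only member with an end peak of a −log10 q of at least 2 in all 3 libraries of 1 group (3.27, 11.2 and 3.43 in the controls) and none listed in the other. No fold is given for these genes, because 1 group is listed at 0.

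The other members named by rule at their ends lay closer together. ZNF574, a scattered member, had 414, 232 and 218 bp in the knockdown libraries and 689, 475 and 760 bp in the controls, without overlap (−0.71, SE 0.25, limma adjusted p = 0.379). ZNF556 of cluster 1 had 719, 695 and 844 bp in the knockdown libraries and 726, 512 and 518 bp in the controls (0.38, SE 0.15, limma adjusted p = 0.423). ZNF708 of cluster 4 had 991, 991 and 962 bp in the knockdown libraries and 748, 935 and 765 bp in the controls (0.33, SE 0.10, limma adjusted p = 0.303). Both were above all controls in covered bp after scaling, but their strongest end peaks were weaker in the knockdown libraries. For ZNF556 the fold was 8.70, 9.61 and 9.64 in the knockdown libraries and 15.70, 19.04 and 17.35 in the controls. For ZNF708 it was 18.45, 19.11 and 19.66, against 23.76, 26.90 and 22.27. The median fold of all genes was lower in the knockdown libraries as well (10.7 to 11.3, against 12.2 to 13.5). ZNF766 was lower at its ends too, with 2171, 2080 and 2283 bp in the knockdown libraries and 2580, 2711 and 2637 bp in the controls (−0.14, SE 0.06, limma adjusted p = 0.435). The members with the most end-covered DNA in their clusters, ZNF555, ZNF699, ZNF653, ZNF101, ZNF181, ZNF260, ZNF576 and ZNF580, differed by −0.14 (ZNF653) to 0.10 (ZNF260), with adjusted p-values of 0.531 to 0.965. ZNF358 (−0.30), ZNF443 (0.22), ZNF584 (0.20) and ZNF599 (−0.33) did not pass at the ends either, with adjusted p-values of 0.411 to 0.812.

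Few regions of the members were found in 1 group alone. At a −log10 q of at least 2, 445 merged regions touched the ends or bodies of the members, and 225 of them were found in all 6 libraries. At the ends alone 183 of 237 regions were found in all 6 (77.2%). The share over 216003 regions of all chromosomes was 28.7%, but those include regions away from gene ends, so the 2 shares are not alike. Counted by gene with any listed peak, 75.2% of members and 72.6% of all genes were covered at the ends in all 6 libraries. No region was found in the 3 knockdown libraries alone, where the share over all chromosomes was 0.102%, and 3 were found in the 3 controls alone (0.674%, against 3247 of the 216003 regions of all chromosomes). These lay at 12612867 to 12613143 at ZNF791, at 55612015 to 55612221 in ZNF865 and at 57903424 to 57903678 in ZNF814. Their highest −log10 q was 19.9, at ZNF791 in control library 2.

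Summed over all members, the inner gene bodies, more than 2 kb from both ends, held more covered DNA in the knockdown libraries. The sum, not scaled, was 80850, 81127 and 75580 bp in knockdown libraries 1, 2 and 3 and 71842, 65254 and 63195 bp in the controls, a ratio of 1.19, where the ratio for all genes was 0.906. All 3 knockdown libraries lay above all 3 controls. ZNF536 made up part of this, and without it the sums were 68388, 66675 and 64577 bp and 62753, 57118 and 56553 bp, a ratio of 1.13. Members with a covered base in the inner body numbered 93, 101 and 85 of 247 in the knockdown libraries and 74, 75 and 62 in the controls (37.7% ± 3.24 and 28.5% ± 2.93, SD, n = 3 each), against 67.0% and 65.7% of all genes. As the members were chosen with earlier results of these data known, no test is given for these sums.

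Weak and strong peaks went in opposite directions. Inner peaks with a −log10 q below 2 covered 21184, 22030 and 15441 bp of the members in the knockdown libraries and 7265, 7271 and 4327 bp in the controls, a ratio of 3.11, where the ratio for all genes was 1.90. Inner peaks with a −log10 q of at least 10 covered 44327, 41973 and 44465 bp in the knockdown libraries and 53355, 50902 and 52335 bp in the controls, a ratio of 0.835, where the ratio for all genes was 0.629. Neither pair of groups overlapped. The knockdown lists had more weak and fewer strong peaks over all genes as well, at a lower background pileup, and the part of depth in these differences was not tested. Without ZNF536 the ratio of weak inner peaks was 2.99.

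**Figure D5:**
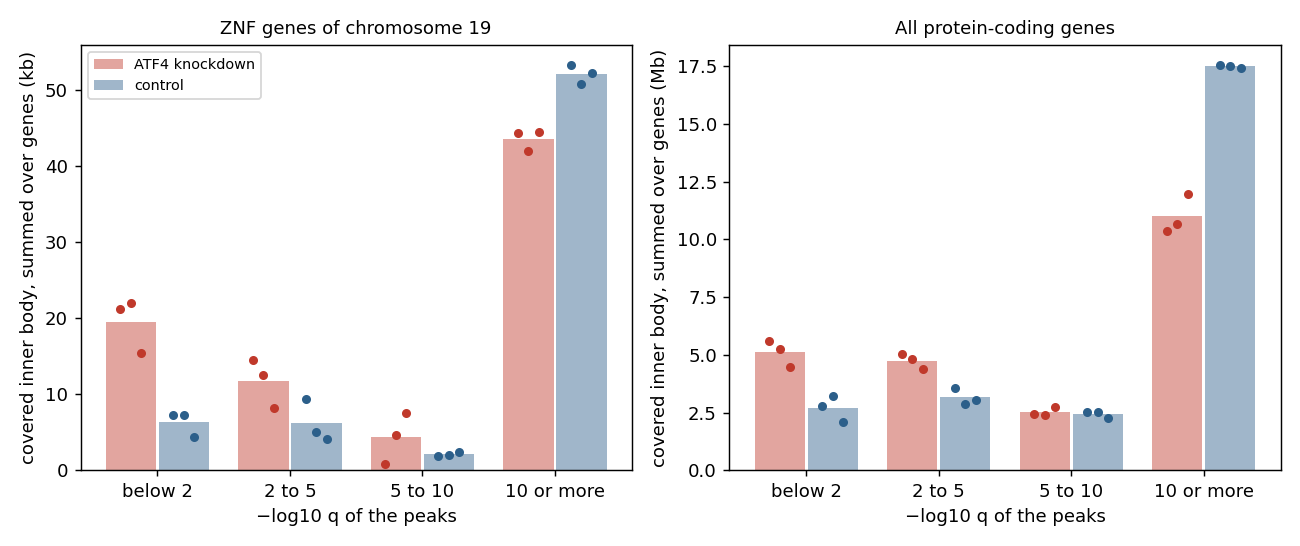
Covered bp in inner gene bodies, summed over the members (left, kb) and over all protein-coding genes (right, Mb), by −log10 q of the peaks, with bars at the mean of 3 libraries and 1 point per library. In both sets the knockdown libraries have more covered DNA below 2 and less at 10 or more.

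None of the members with a response element in the promoter passed the test. ZNF266, ZNF121, ZNF561, ZNF562, ZNF543 and ZNF547 differed by −0.13 (ZNF561) to 0.04 (ZNF547), with limma adjusted p-values of 0.714 to 0.984, and the groups overlapped in all 6 genes. In its body ZNF547 had a difference of 0.62 (SE 0.20, limma adjusted p = 0.192), with all 3 knockdown libraries above the controls. ZNF426 had no covered base in any library.

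The genes of the silencing machinery through which KRAB zinc finger proteins act were open in both groups. Of 31 such genes, 30 had an end peak in all 6 libraries, and 0 passed the threshold. TRIM28, the corepressor itself, which stands next to cluster 9, had 1419, 1305 and 1274 bp at its ends in the knockdown libraries and 1579, 1448 and 1462 bp in the controls (−0.04, SE 0.07, limma adjusted p = 0.873). SETDB1, the methyltransferase that TRIM28 recruits, had 872, 868 and 1157 bp in the knockdown libraries and 883, 865 and 879 bp in the controls (0.21, SE 0.11, limma adjusted p = 0.541). After scaling the groups overlapped for TRIM28, and all 3 knockdown libraries lay above the controls for SETDB1. The median over the 31 genes was −0.02 at the ends and −0.03 in the bodies. The 19 zinc finger genes of chromosome 19 with other names, such as PEG3, ZIM2 and ZFP28, had medians of 0.12 and 0.22 at the ends and in the bodies, and 0 of them passed either.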

How the data were processed

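The 6 lists are MACS2 peaks on hg38, per the submitters' processing notes, called separately for each library; caller settings, aligner, filters and read shifts: not given in the sources used here. The columns of the deposited lists are the peak's position and summit, a score (10 times the −log10 p, up to 1000), a fold, which is a ratio of summit pileup to local background, and a −log10 p (at least 2) and −log10 q. In the deposited lists these values come from within 1 library and move with its depth.

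Members, clusters, gene lists and tests were chosen with earlier results of these data known. Gene positions came from RefSeq genes on GRCh38.p14, and promoters from RefSeq for 219 members; 31 had none. Bases covered by any listed peak were counted within 2 kb of both gene ends and in bodies, and tested with limma 3.58.1 (R 4.3.3; trend and robust settings; checked on simulated data). Background pileup was recovered from fold and p. Samples are labelled biological replicates, and no batch is given, so p-values cover the spread between these samples. Single values of 3 against 3 libraries cannot give an exact permutation p below 0.1, and none is printed. Same-numbered libraries did not deviate together (correlations −0.02 to 0.03), so no block was used.

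Named by rule were members past the threshold, those with the smallest p at ends and in bodies and with the most end-covered DNA in each cluster, those with peaks in 1 group alone, and the one with the highest −log10 q. The planned count of fingers and KRAB domains was not run. The split by −log10 q and the sums without ZNF536 were added after seeing the data.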

Additional observations from a re-analysis of the deposited data

How the results depend on the processing

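Counting strong peaks alone changed the calls most. At gene ends 12 members were higher (adjusted p under 0.05) with peaks of a −log10 q of at least 2, 116 of 185 at 5 and 132 of 181 at 10 (9.91%, 52.3% and 61.2% of all genes tested), and 2 and 3 were lower at 5 and 10 (2.53% and 2.94% of all genes). In bodies 59 of 207 and 94 of 202 were higher (15.1% and 25.9% of all genes) and 2 and 3 lower (4.15% and 6.57%) at 5 and 10. The whole table moved likewise, since each library was scaled by its own total, which was lower in the knockdown libraries; the median of all tested genes shifted to 0.12, 0.27 and 0.33 at the ends at 2, 5 and 10 and to 0.13 and 0.17 in bodies at 5 and 10. The median over members was 0.12, 0.26 and 0.31 at the ends and 0.13, 0.24 and 0.29 in bodies at 2, 5 and 10, at or below that shift at the ends and above it in bodies. With no scaling, which shifted all genes by −0.11 and −0.12, it was −0.042 and −0.020; with centring 0.075 at the ends; with lists of equal length 0.074 and 0.11; in inner bodies 0.0. The share of members covered differed by −1.73, −1.33 and −2.4 points at the ends and 0.27, −0.4 and −2.4 points in bodies at 2, 5 and 10, by −1.2 with lists of equal length and 2.13 within 5 kb at the ends, and by 9.07 in inner bodies. In bodies 1 higher call appeared without a filter on low values (0.195% of all genes) and 1 of 79 in inner bodies (0.636%). Directions reversed for ZNF653 ends (0.27 at 10), ZNF766 ends (0.18 and 0.24 at 5 and 10), ZNF574 bodies (0.39 and 0.44) and ZNF536 bodies (−0.50 at 10). For ZNF653 and ZNF766 these values lie below the shift of all genes, and the unscaled bp in peaks of at least 10 stayed lower in the knockdown libraries (2113 against 2513 and 2178 against 2643). The sign for these 2 genes therefore depends on the scaling. For ZNF574 bodies the unscaled values at 10 were nearly equal, 1052 bp in the knockdown libraries and 1062 bp in the controls. The 0.44 of ZNF574 therefore depends on the scaling too. Of 857 values of named members under alternatives, 793 kept their sign. With the replicate block 0 members passed. With each library left out in turn 0 members passed. Gaps of 0.5 and 2 Mb gave 10 and 6 clusters. Depth, and peak lists in place of counts, limit weak regions most.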
